A study of Mus musculus with 19 samples.

Results

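The carriers of the mitochondrial inner membrane encoded by the Slc25 family were described in kidneys of fasted and ad libitum fed mice. A list of 35 family members was used, written by transported substrate, and each was read at the brightest probe set, over all 19 arrays, that the annotation assigns to that gene alone. Such a probe set was found for 33 of the 35 members, out of 17097 genes measured in this way. Ucp2 and the oxoglutarate carrier Slc25a11 had no probe set of their own in this annotation and were not analysed here. The data were Affymetrix HT MG-430 PM arrays of whole kidney RNA, 1 array per male mouse, without renal ischemia. Young mice were of the strain C57BL/6J, aged 10 to 14 weeks with a weight of 22 to 25 g. The aged mice, FVB-C57BL/6J F1 hybrids, averaged 73 weeks and about 47 g. In each age, mice that had food at will (5 young, 5 aged) were compared with mice given only water for 3 days (4 young, 5 aged). The ages therefore also differ in strain and weight, and these 3 cannot be told apart.

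Most Slc25 proteins exchange a metabolite on one side of the inner mitochondrial membrane for a metabolite on the other, which links the pools of nucleotides, carboxylic acids, amino acids, cofactors and iron in the matrix to those in the cytosol. They share a fold built from repeats of a pair of membrane helices, and most are inserted by the TIM22 translocase. Proximal tubule cells are rich in mitochondria, and during a fast the kidney takes part in gluconeogenesis and ammonia formation, which need carboxylates and amino acids to cross this membrane.

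Values below are log2 levels after RMA, a summary of the probes of a probe set. A member is said to have risen or fallen where limma gave an adjusted p of at most 0.05 over all probe sets, and a fold change of 1.5 was the further threshold of the study. Array medians lay between 4.15 and 4.21 in young and between 3.44 and 3.49 in aged kidneys, so levels were compared only within an age. The whole kidney holds many cell types, and fewer cells of a type cannot be told apart from less RNA per cell. Skeletal muscle markers averaged 3.11 to 3.61 in all arrays. Kidney tubule markers averaged 10.54 to 10.76 in fed and 10.33 to 10.49 in fasted young kidneys, without overlap, and 10.43 to 10.71 against 10.14 to 10.46 in aged ones. Among them the glucose transporter Slc5a2 fell by 0.89 in young and 1.09 in aged kidneys (limma adjusted p of 0.00082 and 3.63e-05). The water channel Aqp2 fell by 0.53 in young kidneys (limma adjusted p = 0.0253) and gave -0.53 in aged ones, which did not pass. The other measured tubule markers did not pass in either age. In young and aged kidneys Cubn gave 0.10 and -0.05, Umod -0.10 and 0.10, Slc12a1 -0.04 and 0.09, and Slc12a3 0.09 and -0.19. The part of the tubule markers in the carrier changes was not tested. The hepatocyte marker mean was 10.9 in aged fasted mouse 33 and at most 9.26 in the other arrays. Brown adipocyte markers averaged 4.32 to 4.63 in young ad libitum fed kidneys and 5.71, 5.07, 5.39 and 4.39 in young fasted mice 339, 340, 343 and 344. Of these 8 markers, Cidea, Cox8b, Cpt1b and Dio2 rose in young kidneys, by 2.84, 1.77, 0.73 and 0.24. Cox7a1 fell there by 0.77, and Ucp1, Ucp3 and Elovl3, at 0.88, -0.12 and -0.07, did not pass. In aged kidneys the mean was 4.47 to 5.96 when fed and 4.28 to 5.52 when fasted. Only Cox7a1 passed there (-0.85, limma adjusted p = 0.00154).

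In fasted young kidneys 10 carriers rose and 6 fell, and the test was not passed by 17. Of all genes 10.7% rose and 12.5% fell in that comparison. In fasted aged kidneys 2 carriers rose and 2 fell, 29 did not pass, and the shares of all genes were 4.32% and 4.84%. The median log2 fold change of the carriers was 0.01 in young and -0.02 in aged kidneys, against -0.01 for all genes in both, with carriers changed in both directions. In young kidneys 32 of 33 carriers lay above the median probe set, as did 10203 of 17097 genes. Above it 50% of the carriers passed, against 36.4% of the genes. In aged kidneys 31 carriers lay above the median, as did 10684 of the genes, and 12.9% of these carriers passed, against 14.3% of such genes. Slc25a27 in both ages and the folate carrier Slc25a32 in aged kidneys were dimmer than the median probe set.

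**Figure D1:**
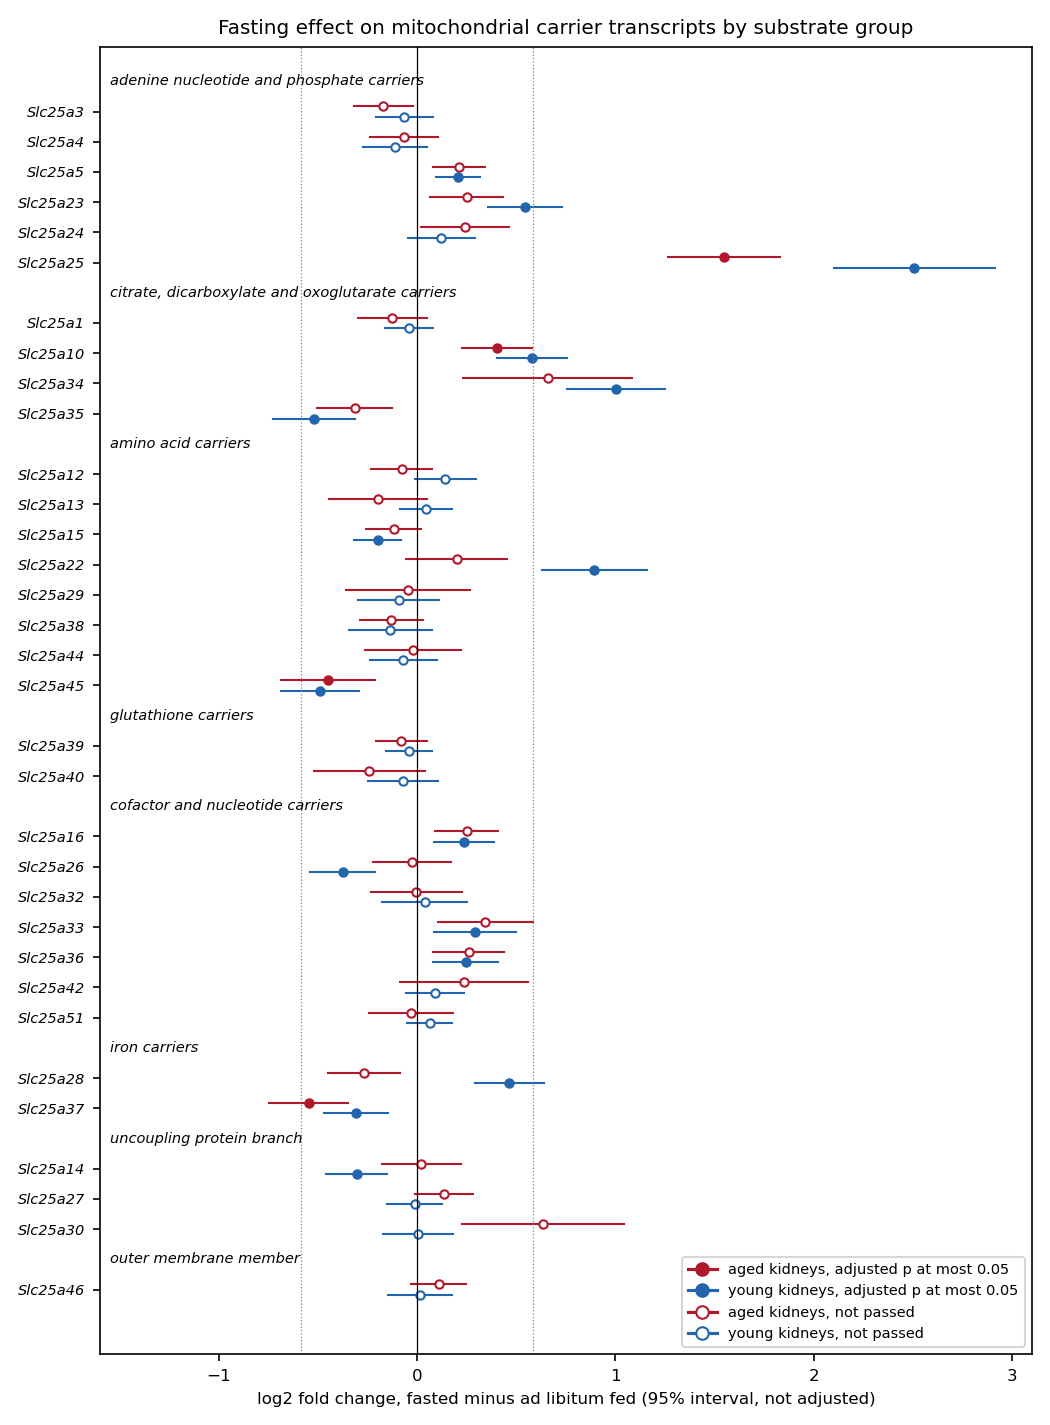
Fasting effect on 33 mitochondrial carriers, as log2 fold change of fasted minus ad libitum fed kidneys (x axis) with unadjusted 95% intervals, by substrate group (y axis), red for aged and blue for young mice. Filled points passed an adjusted p of 0.05, and dotted lines mark a 1.5-fold change; Slc25a25 at 1.55 and 2.51 lies farthest from 0.

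At the 1.5-fold threshold Slc25a25, Slc25a34 and Slc25a22 were differentially regulated in young kidneys, all 3 upward, and Slc25a25 alone in aged kidneys. The share of all genes past this threshold was 6.49% in young and 2.67% in aged kidneys. Above the median probe set it was 10.4% of genes and 9.38% of carriers in young kidneys. In aged kidneys it was 4.22% and 3.23%. Every array of one diet lay beyond every array of the other for 14 carriers in young kidneys, 8 higher and 6 lower after fasting, with 21.3% of all genes separated in this way. In aged kidneys 6 carriers were separated, 5 higher and 1 lower, with 10.2% of all genes. Above the median probe set 43.8% of carriers and 33.2% of genes were separated in young kidneys, and 19.4% and 15.5% in aged ones.

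Slc25a25 showed the largest change of the family in both ages. It encodes an ATP-Mg/phosphate carrier that is controlled by calcium and sets the amount of adenine nucleotides in the matrix. Its gene lies at chr2:32414487-32451470 in the mouse assembly GRCm38.p6, on the minus strand, and the RefSeq promoter table holds 3 start sites for it. The 250 bases before start 3, chr2:32424067-32424316, are shown because they hold the full cyclic AMP response element, TGACGTCA (a palindrome, so 1 search covers both strands), in capitals, beginning 150 bases before the start. At starts 1 and 2 of Slc25a25 this element was not found. The other carrier with this element is the pyrimidine nucleotide carrier Slc25a36, minus strand, chr9:97111042-97111291, where it begins 161 bases before the start.
Slc25a25, start 3: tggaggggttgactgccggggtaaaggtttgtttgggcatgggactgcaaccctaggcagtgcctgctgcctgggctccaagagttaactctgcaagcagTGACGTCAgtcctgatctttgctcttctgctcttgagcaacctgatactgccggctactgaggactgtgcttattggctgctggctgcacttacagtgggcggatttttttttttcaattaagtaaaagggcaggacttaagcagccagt
Slc25a36: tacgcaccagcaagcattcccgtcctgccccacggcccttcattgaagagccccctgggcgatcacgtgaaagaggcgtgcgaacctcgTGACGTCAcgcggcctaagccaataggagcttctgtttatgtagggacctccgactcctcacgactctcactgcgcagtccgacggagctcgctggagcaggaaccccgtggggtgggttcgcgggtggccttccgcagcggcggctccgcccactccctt

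A promoter sequence, from 250 bases before to 50 after a start, was available for 27 of the 35 carriers, and 2 of these 27 held the element, against 2.03% of 27025 genes. A gene was counted where any of its starts held the element, and 1.79% of all 32851 start windows held it. The FoxO element GTAAACA, the ERR element TCAAGGTCA and the ATF4 element TGATGCAA, searched on both strands, were found in 0 of the 27 carriers, with 4.05%, 0.466% and 1.03% of all genes holding them. A match describes the letters of the window and no more.

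The log2 level of Slc25a25 in young ad libitum fed mice 346 to 350 was 6.02, 5.93, 5.56, 5.55 and 5.56. In young fasted mice 339, 340, 343 and 344 it was 7.62, 8.20, 8.45 and 8.64. The groups were far apart. Fasted mouse 344, with the highest Slc25a25, had the lowest brown adipocyte markers of the fasted mice. With brown adipocyte markers as a covariate the young log2 fold change was 2.91 (limma adjusted p = 3.57e-05). The part of brown adipocyte RNA in the rise was not tested in another way. The rise was 5.69-fold (log2 2.51, SE 0.19, limma adjusted p = 5.74e-06). In aged ad libitum fed mice 34, 36, 37, 40 and 43 the level was 6.77, 6.55, 6.68, 6.68 and 6.15, and in aged fasted mice 33, 38, 39, 41 and 42 it was 7.84, 8.32, 7.91, 8.18 and 8.31. These groups did not overlap either. Mouse 33, with the high hepatocyte markers, was the lowest of the fasted 5, close to mouse 39. With hepatocyte markers as a covariate the aged log2 fold change was 1.60, and without mouse 33 it was 1.62 (limma adjusted p of 3.3e-05 and 2.39e-05). The part of hepatocyte RNA in the rise was not tested in another way. The aged rise was 2.93-fold (log2 1.55, SE 0.13, limma adjusted p = 2.15e-05).

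The fasting effect on Slc25a25 was smaller in aged than in young kidneys by 0.96 on the log2 scale (95% interval of aged minus young -1.46 to -0.46, limma adjusted p = 0.0416). Across all genes 2.44% differed between the ages in this test, and 3 carriers did, all with the lower value in aged kidneys. For Slc25a25 the call was lost when any of 13 of the 19 arrays was left out, with adjusted p up to 0.0989, and it was kept without young 346, 347 or 339 and without aged 43, 38 or 42. A second, dimmer probe set of Slc25a25 rose by 0.72 in aged kidneys (limma adjusted p = 0.00374) and gave 0.85 in young kidneys (adjusted p = 0.0634), with a difference of -0.13 between the ages (adjusted p = 0.926).

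The other 5 measured carriers of adenine nucleotides and phosphate changed less. Slc25a23, a second calcium-controlled ATP-Mg/phosphate carrier, rose in young kidneys by 0.55 (1.46-fold, limma adjusted p = 0.000963), with fasted levels of 7.10 to 7.35 against 6.50 to 6.93. In aged kidneys it gave 0.25. The third of these carriers, Slc25a24, gave 0.12 in young and 0.24 in aged kidneys and did not pass. Slc25a5, an ADP/ATP translocase, rose by 0.21 in young kidneys (limma adjusted p = 0.0147) and gave 0.21 in aged kidneys too (adjusted p = 0.0596), and all 4 of its probe sets lay between 0.16 and 0.30. The third of them passed in aged kidneys (0.24, limma adjusted p = 0.0301). Slc25a4, the translocase known from heart and muscle, gave -0.11 and -0.07, and the phosphate carrier Slc25a3 gave -0.07 and -0.17, in young and aged kidneys. In this group 3 of 6 rose in young and 1 of 6 in aged kidneys, and 0 fell in limma. At an unadjusted p under 0.05, 3 were higher and 0 lower in young kidneys, and 4 higher and 1 lower in aged ones.

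**Figure D2:**
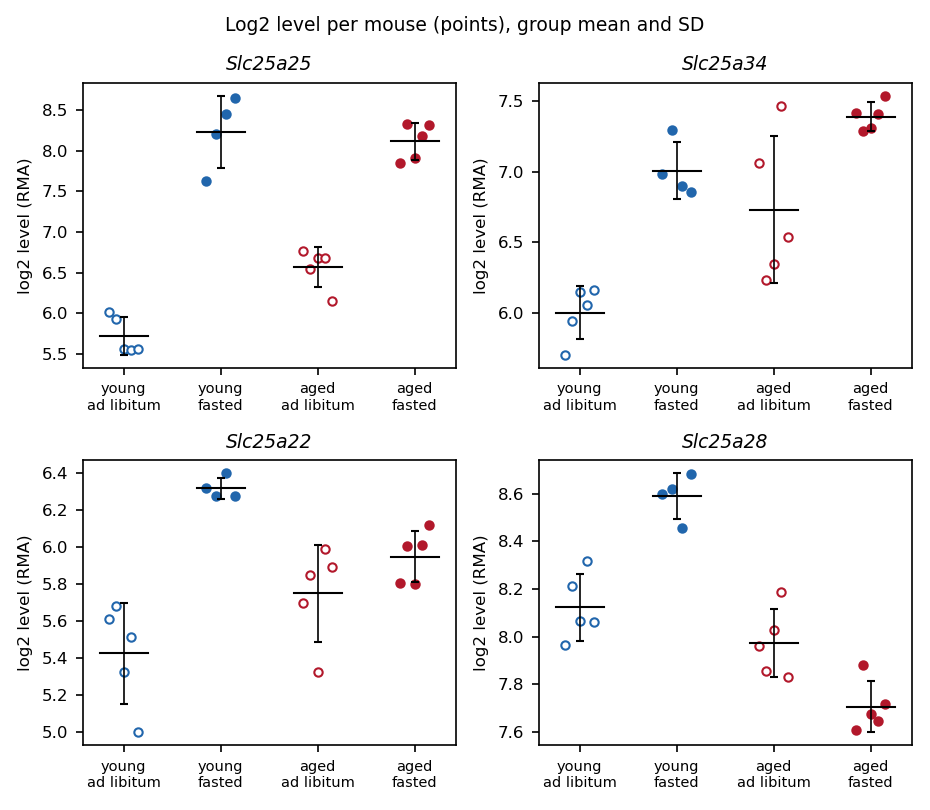
Log2 level (y axis) of Slc25a25, Slc25a34, Slc25a22 and Slc25a28 in each mouse, by age and diet (x axis), with the mean (line) and SD (bar) of each group; open points are ad libitum fed and filled points fasted mice. Slc25a28 was higher after fasting in young mice, at 8.45 to 8.68 against 7.96 to 8.32, and not in aged mice, at 7.61 to 7.88 against 7.83 to 8.19.

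Among the 4 measured carriers of citrate and dicarboxylates, 2 rose and 1 fell in young kidneys. Slc25a34, an orphan carrier that groups with the dicarboxylate carriers, stood at 5.71, 5.94, 6.15, 6.05 and 6.16 in young ad libitum fed mice. It stood at 6.98, 7.30, 6.90 and 6.85 in the fasted mice, all above the fed ones. The rise was 2.01-fold (log2 1.00, SE 0.11, limma adjusted p = 1e-04). In aged kidneys it was 7.06, 6.23, 6.35, 7.46 and 6.54 in fed and 7.41, 7.28, 7.31, 7.41 and 7.53 in fasted mice. The 5 fasted values were close together, while the fed ones were spread and mouse 40 overlapped with them, and the change of 0.66 (SE 0.20) did not pass (limma adjusted p = 0.0694). The difference between the ages was -0.34, with an interval of -0.87 to 0.18, and did not pass the test.

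Slc25a10, the dicarboxylate carrier that exchanges malate or succinate for phosphate and is abundant in kidney, rose in both ages. Fed young mice stood at 9.13 to 9.32 and fasted ones at 9.67 to 10.03, a rise of 0.58 (1.49-fold, limma adjusted p = 0.000467). Fed aged mice stood at 9.70 to 10.10 and fasted ones at 10.19 to 10.33, a rise of 0.40 (adjusted p = 0.0108). Its second probe set rose by 0.54 in young and 0.48 in aged kidneys. Slc25a35, the orphan closest to Slc25a34, moved the other way: it fell by 0.52 in young kidneys (limma adjusted p = 0.00247) and gave -0.31 in aged kidneys (adjusted p = 0.0508). The citrate carrier Slc25a1, which exports citrate for lipid synthesis, gave -0.04 in young and -0.12 in aged kidneys and did not pass.

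**Figure D3:**
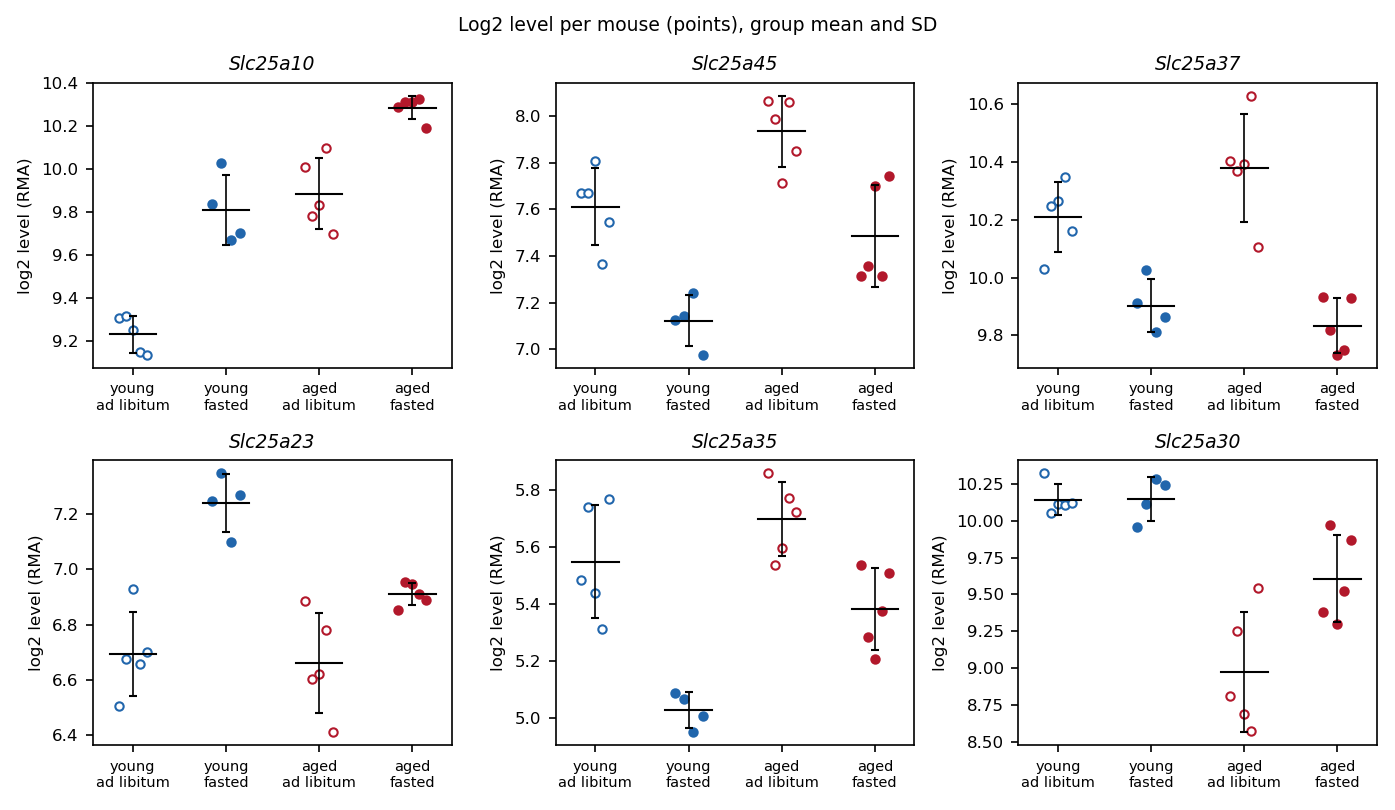
Log2 level (y axis) of 6 carriers in each mouse, by age and diet (x axis), with the mean (line) and SD (bar) of each group; open points are ad libitum fed and filled points fasted mice. Slc25a10 rose and Slc25a45 and Slc25a37 fell in both ages; Slc25a30 stood at 9.96 to 10.32 in all young mice and had spread values in aged fed mice.

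Of the 8 amino acid carriers, Slc25a22 was the only one to rise. It encodes a glutamate carrier, and glutamate in the matrix is the substrate of glutamate dehydrogenase. Fed young mice had 5.61, 5.68, 5.32, 5.52 and 5.00, and fasted young mice had 6.32, 6.28, 6.40 and 6.28. The groups did not overlap, and the rise was 1.86-fold (log2 0.89, SE 0.12, limma adjusted p = 0.000365). Fed aged mice had 5.70, 5.85, 5.32, 5.99 and 5.89, and fasted aged mice had 5.81, 6.01, 5.80, 6.01 and 6.12. Here the groups overlapped, with a difference of 0.20 (SE 0.12, adjusted p = 0.416). The aged effect was lower than the young one by 0.69 (interval of aged minus young -1.06 to -0.32, limma adjusted p = 0.0479). That call was lost without any of 16 of the 19 arrays, with adjusted p up to 0.0839, and was kept without young 347, aged 37 or aged 42. With brown adipocyte markers as a covariate the difference was -0.53 (adjusted p = 0.137).

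Slc25a45, an orphan close to the carriers of basic amino acids, fell in both ages. Fed young mice stood at 7.37 to 7.81 and fasted ones at 6.98 to 7.24, without overlap (-0.49, limma adjusted p = 0.00261). Fed aged mice stood at 7.71 to 8.07 and fasted ones at 7.31 to 7.75, where mouse 42 at 7.75 lay above the lowest fed mouse (-0.45, adjusted p = 0.0273). The aged call was lost without fed mouse 34, 36 or 40 or fasted mouse 33, 38 or 41, with adjusted p of 0.0507 to 0.079. The ornithine carrier Slc25a15, which serves the urea cycle in liver, fell by 0.20 in young kidneys (limma adjusted p = 0.0229, lost without mouse 348, 339 or 344), and a second probe set fell by 0.61 (adjusted p = 0.00424). The aspartate-glutamate carriers Slc25a12 and Slc25a13 of the malate-aspartate shuttle gave 0.14 and 0.04 in young and -0.08 and -0.20 in aged kidneys, and did not pass. The carriers for basic amino acids (Slc25a29), glycine (Slc25a38) and branched-chain amino acids (Slc25a44) did not pass in either age.

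Both glutathione carriers, Slc25a39 and Slc25a40, did not pass at their brightest probe sets in either age, at -0.04 and -0.07 in young and -0.08 and -0.24 in aged kidneys.

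The 7 carriers of cofactors and nucleotides gave small changes. In young kidneys the coenzyme A carrier Slc25a16 rose by 0.24 and the pyrimidine nucleotide carriers Slc25a33 and Slc25a36 rose by 0.29 and 0.24, with limma adjusted p of 0.0313, 0.0489 and 0.0394. These calls were near the threshold. That of Slc25a33 was kept when mouse 339 was left out and lost without any other young mouse, that of Slc25a36 was kept without 339 or without 350 and lost without any other young mouse, and that of Slc25a16 was lost without 347, 348, 349, 339 or 340. After centring of the arrays on their medians the 3 gave 0.21, 0.27 and 0.22 for Slc25a16, Slc25a33 and Slc25a36, with adjusted p of 0.0651, 0.064 and 0.0694. Slc25a26, which brings S-adenosylmethionine into the matrix for methylation of mitochondrial RNA and proteins, fell by 0.37 (adjusted p = 0.00418). In aged kidneys 0 of 7 passed in limma, with 3 at an unadjusted p under 0.05. The first 3 gave there 0.25, 0.34 and 0.26 and did not pass (adjusted p of 0.0641, 0.091 and 0.0886), although fed and fasted arrays were separated for Slc25a16 and Slc25a36. Slc25a26 gave -0.03 there. The second coenzyme A carrier Slc25a42, the folate carrier Slc25a32 and the NAD carrier Slc25a51 did not pass at their brightest probe sets.

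The iron carriers, the mitoferrins, bring iron into the matrix for heme and iron-sulfur clusters, and in young kidneys one rose and the other fell. Slc25a28, mitoferrin 2, is the widely expressed one. In young mice it had 7.96, 8.21, 8.07, 8.32 and 8.06 when fed and 8.60, 8.62, 8.45 and 8.68 when fasted, without overlap, a rise of 1.38-fold (log2 0.47, SE 0.08, limma adjusted p = 0.00179). In aged mice it had 7.96, 7.86, 8.03, 8.19 and 7.83 when fed and 7.61, 7.88, 7.68, 7.65 and 7.72 when fasted. Fasted mouse 38 lay within the fed range and the others below it, and the change of -0.27 (SE 0.08) did not pass (adjusted p = 0.0833). The difference between the ages of -0.73 (interval -0.98 to -0.49) passed with limma adjusted p = 0.00227 and was kept without any single array. It had an adjusted p of 0.00124 to 0.00796 under every alternative tried. Slc25a28 has 1 probe set, so the alternatives by probe set used the same values.

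Slc25a37, mitoferrin 1, supplies iron for heme in developing red cells. It fell in both ages, from 10.03 to 10.35 in fed young mice to 9.81 to 10.02 in fasted ones (-0.31, limma adjusted p = 0.013), and from 10.11 to 10.63 in fed aged mice to 9.73 to 9.93 in fasted ones (-0.55, adjusted p = 0.00343). The groups did not overlap in either age. Of its other probe sets, the third gave -0.44 and -0.56 in young and aged kidneys and the second gave 0.25 and -0.02, with adjusted p of 0.0954 and 0.953. Of the erythroid markers 2 of 6 were measured, the heme enzyme gene Alas2 and Hba-a1 of hemoglobin. Their mean was 8.85 to 9.81 in fed and 8.09 to 8.46 in fasted young kidneys, and 8.85 to 9.36 against 8.25 to 8.91 in aged ones. Hba-a1 fell by 0.75 in young kidneys and Alas2 by 1.01 (limma adjusted p of 0.00118 and 0.00682), and in aged kidneys they gave -0.28 and -0.62 (adjusted p of 0.202 and 0.0628).

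With that marker mean as a covariate, Slc25a37 gave -0.39 in aged (limma adjusted p = 0.142) and -0.18 in young kidneys (adjusted p = 0.663). Since the marker mean did not overlap between diets in young kidneys, the marker level and the fast cannot be told apart there, and this fit left 3 rises (Slc25a25, Slc25a34 and Slc25a22) and 0 falls among the young carriers. Some fold changes that lost their call there were of similar size with the covariate: 0.55 for Slc25a23, 0.65 for Slc25a10, 0.23 for Slc25a5, -0.42 for Slc25a26 and -0.43 for Slc25a45, with limma adjusted p of 0.169, 0.0813, 0.338, 0.23 and 0.318. Others were smaller: Slc25a35 gave -0.30 (adjusted p = 0.496) and Slc25a15 -0.17 (adjusted p = 0.549). Across all alternatives Slc25a14 ranged up to -0.20, from -0.30 as reported, and Slc25a16 down to 0.14, from 0.24. In aged kidneys Slc25a45 gave -0.59 (adjusted p = 0.0762).

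**Figure D4:**
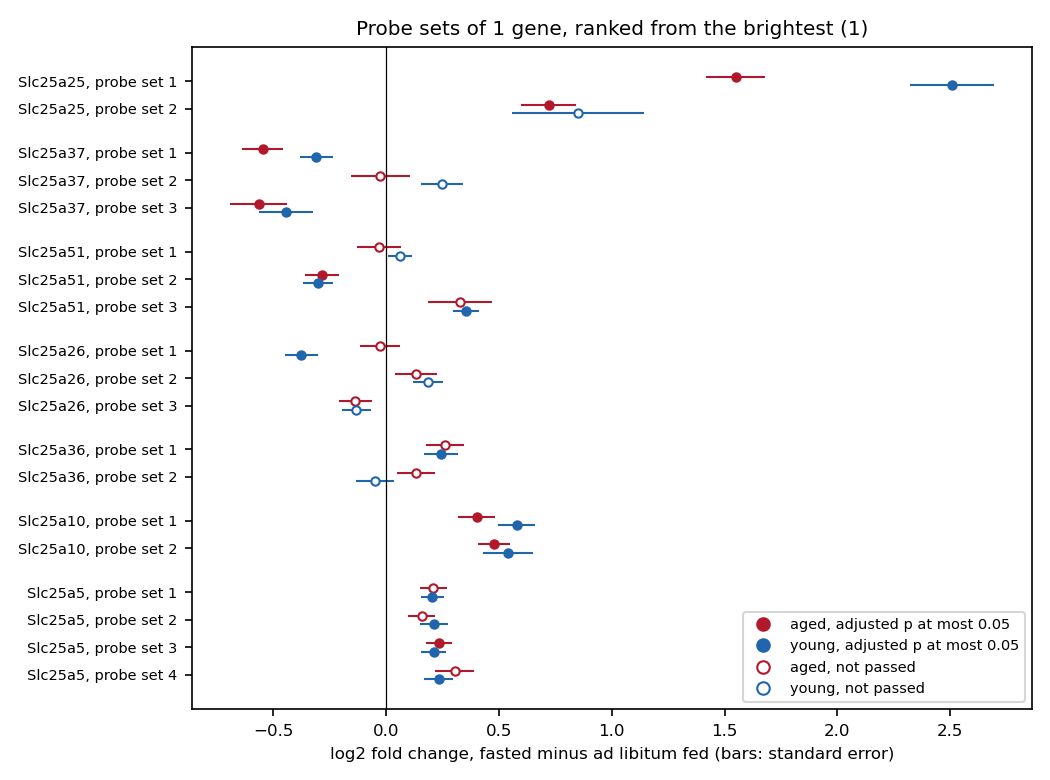
Log2 fold change of fasted minus ad libitum fed kidneys (x axis, bars are standard errors) for every probe set of 7 carriers (y axis), ranked from the brightest, red for aged and blue for young mice; filled points passed an adjusted p of 0.05. The probe sets of Slc25a10 and Slc25a5 lie together, while those of Slc25a51, Slc25a37, Slc25a36 and Slc25a26 lie on both sides of 0 in young kidneys.

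For 18 carriers several probe sets were present, and they did not always give the same answer. Slc25a51, the NAD carrier, gave 0.06 in young and -0.03 in aged kidneys at its brightest probe set. The second probe set fell by 0.30 and 0.28 (limma adjusted p of 0.00783 and 0.0453). The third rose by 0.36 in young kidneys (adjusted p = 0.00138) and gave 0.33 in aged kidneys (adjusted p = 0.235). For Slc25a26 the second probe set gave 0.19 in young kidneys, against the fall at the first, and for Slc25a36 it gave -0.05 against the rise at the first. The second probe set of Slc25a12, aralar, rose by 0.39 in young kidneys (adjusted p = 0.0315). The third probe set of Slc25a39 fell by 0.29 in aged kidneys (adjusted p = 0.0332).

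In the uncoupling protein branch, Slc25a14 fell by 0.30 in young kidneys (limma adjusted p = 0.0093) and gave 0.02 in aged ones. Slc25a30, the kidney mitochondrial carrier, gave 0.00 in young and 0.63 (SE 0.19) in aged kidneys, which did not pass (adjusted p = 0.0683). Fed aged mice stood at 8.81, 9.25, 8.69, 8.57 and 9.54 and fasted ones at 9.38, 9.97, 9.30, 9.52 and 9.87, with fed mouse 43 inside the fasted range. The difference between the ages was 0.63 (adjusted p = 0.184). Slc25a46, which works at the outer membrane in mitochondrial shape rather than as a carrier, gave 0.01 and 0.11 and did not pass.

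Of the 33 carriers 4 passed in both ages (Slc25a25, Slc25a10, Slc25a45 and Slc25a37), each in 1 direction, 12 passed in young kidneys alone and 17 in neither. These are 12.1%, 36.4% and 51.5% of the carriers, against 6.43%, 16.7% and 74.1% of all genes. A smaller share of all genes than of carriers lay above the median probe set. Passing in 1 age alone does not show a difference between the ages, and only Slc25a22 and Slc25a28 of these 12 passed the test of that difference. The sign was shared between ages by 26 of 33 carriers (78.8%), against 65.9% of all genes. The change was larger in young kidneys for 18 carriers (54.5%), against 54.8% of all genes. Among carriers that did not pass, the unadjusted 95% interval lay within 1.5-fold in either direction for 17 of 17 in young kidneys and for 27 of 29 in aged kidneys, the exceptions being Slc25a34 and Slc25a30.

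Of 19 measured genes for proteins that import or work beside the carriers, 4 passed in young (21.1%) and 1 in aged kidneys (5.26%), against 23.2% and 9.16% of all genes. Of 8 genes of the TIM22 import route, the chaperone Timm9, which escorts carriers across the intermembrane space, fell by 0.51 in young and 0.37 in aged kidneys (limma adjusted p of 0.00669 and 0.013). The insertase Timm22 gave -0.19 and -0.22 and did not pass (adjusted p of 0.0543 and 0.112). Of 3 measured enzymes of the malate-aspartate shuttle, malate dehydrogenase Mdh2 fell by 0.20 in young kidneys (adjusted p = 0.0248) and the transaminase Got2 gave 0.18. Of 8 other mitochondrial transport proteins, the sideroflexin Sfxn3 rose by 0.29 and Sfxn5 fell by 0.32 in young kidneys (adjusted p of 0.0291 and 0.00807). In aged kidneys 0 of these 11 passed in limma, with 1 at an unadjusted p under 0.05. Of 7 genes of general mitochondrial content 0 passed in limma in either age, with 1 in young and 3 in aged kidneys at an unadjusted p under 0.05, and their medians were -0.06 and -0.12. The smallest adjusted p were those of the prohibitin Phb2 (-0.17, 0.0974) and the transcription factor Tfam (0.12, 0.179) in young kidneys, and of the mitochondrial RNA polymerase Polrmt (-0.20, 0.133) and citrate synthase Cs (-0.18, 0.151) in aged kidneys.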

How the data were processed

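Total RNA of 19 kidneys was measured on Affymetrix arrays. The authors background-corrected and normalized the intensities by RMA and deposited log2 values of 45141 probe sets; the software version is not given in the sources used here. Array medians differed between ages and hardly within them. Of the probe sets, 28898 had 1 gene symbol in the annotation used, 551 had several and 15692 were not listed. limma 3.58.1 in R 4.3.3 was fitted per age (lmFit, eBayes), and the difference between ages from 4 group means over 19 arrays, with p values adjusted across the whole array by Benjamini-Hochberg. Thresholds were an adjusted p of 0.05 and, where stated, 1.5-fold. The scripts were tested on simulated data. Members, lists and tests were chosen with earlier results of these data known. Array values are given for carriers past 1.5-fold or differing between ages, and fold changes for the other passing carriers; values of further carriers were chosen after they were seen. Promoters came from RefSeq (GRCm38.p6). Protein features were not computed here. Alternatives covered the test, normalization, filter, probe set rule, marker covariates and left-out arrays. Mice count as replicates, and their number limits the precision.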

Additional observations from a re-analysis of the deposited data

Results flagged for a closer look

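For 3 carriers the test of a difference between the ages was passed. The differences were -0.96 (aged minus young, log2) for Slc25a25, -0.69 for Slc25a22 and -0.73 for Slc25a28, with limma adjusted p of 0.0416, 0.0479 and 0.00227. With 1 array left out at a time, the call was kept in all 19 fits for Slc25a28. It was kept in 6 of 19 for Slc25a25 and 3 of 19 for Slc25a22. In 132 groups of arrays, 1 per carrier and condition, 5 arrays stood far from the rest of their group by Dixon's gap ratio at its 95% critical value, which flags about 1 group in 20 by chance. The ADP/ATP translocase Slc25a4 was at 10.82 in aged fasted mouse 42, with the nearest array at 11.05. The folate carrier Slc25a32 was at 3.08 in aged ad libitum fed mouse 43, under the median probe set. The coenzyme A carrier Slc25a42 was at 6.44 in young fasted mouse 344, and the nearest array was at 6.22. Slc25a30 was at 10.32 in young ad libitum fed mouse 346, against 10.12 in the nearest. Slc25a46 was at 8.42 in aged ad libitum fed mouse 36, with the nearest array at 8.58. None of these 5 carriers passed in the age concerned.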

How the results depend on the processing

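Of 23 fold changes and differences of passing carriers, 4 kept their call under every alternative: Slc25a25 in aged, Slc25a22 and Slc25a34 in young kidneys, and the difference of Slc25a28. Slc25a22, Slc25a34 and Slc25a28 have 1 probe set each, so the alternatives by probe set used the same values for them. Slc25a25 in young kidneys lost its call only at its second brightest probe set (limma adjusted p = 0.0634). Carriers that rose in aged kidneys, 2 as reported, numbered 8 with all 19 arrays in one fit, 5 with array weights or with trend and robust variances, 4 with the mean of a gene's probe sets or with 1 probe set per gene in the adjustment, and 1 at an adjusted p of 0.01. Falls there, 2 as reported, numbered 4 in the joint fit, 1 without moderation or at 0.01, and 0 with erythroid markers as a covariate, where the aged fold change of Slc25a45 was -0.59 and that of Slc25a37 -0.39. Carriers past 1.5-fold in aged kidneys, 1 as reported, numbered 3 in the joint fit or with hepatocyte markers as a covariate and 2 with array weights. In young kidneys the 10 rises became 6 at 0.01 and 3 with the erythroid covariate, the 6 falls became 3 with brown adipocyte and 0 with erythroid markers as a covariate, and the 3 past 1.5-fold became 5 without mice 339 and 343. The 3 differences between ages became 1 without moderation, at 0.01 or with the erythroid covariate.

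Leaving out 1 array at a time gave 2 to 4 rises and 1 to 2 falls in aged kidneys (4 rises without mouse 34, 1 fall without 34, 40, 38 or 41), 1 to 3 past 1.5-fold there (2 without 40, 3 without 43), 3 to 5 in young kidneys (5 without 343), 7 to 9 rises and 5 to 6 falls in young kidneys, and 1 to 3 differences. The count was 1 without young 348, 349, 350, 340, 343 or 344 or aged 34, 36, 33, 39 or 41. At the second brightest probe set the young change turned to 0.19 for Slc25a26, -0.050 for Slc25a36 and 0.25 for Slc25a37. The cause of these shifts was not tested. The erythroid covariate, the removal of mice 339 and 343 together and the alternatives for carriers under 1.5-fold were chosen after seeing the data. No paired analysis was possible because the labels identify no matched pairs of mice; the methods mention matching by body weight and sex. Dim probe sets (Slc25a27, and Slc25a32 in aged kidneys) limit what could be seen for those carriers.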
